A study of Mus musculus with 23 samples.

Results

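The genes described here are 9 markers that are widely used for cancer-associated fibroblasts and for the contractile cells around vessels, taken by their gene names from the 56748 genes counted in tumors of B16-F1 cells, a mouse melanoma line. The 9 genes are Acta2, Tagln, Pdgfra, Pdgfrb, Fap, Dcn, Lum, Postn and Thy1, and each name matched 1 gene. The tumors were grown under the skin of the flank in DBA/2J mice that were 6 to 8 weeks old. Treatment went by the intraperitoneal (IP) route into 8 mice and by the intratumoral (IT) route into 15, and since every route is also a batch in the labels and its control had a vehicle of its own, the effects of route, batch and vehicle cannot be told apart. PTX (pentoxifylline) was given at 60 mg/kg, NCTD (norcantharidin) at 3 mg/kg, and MIX was both drugs at those doses. CONTROL_IP received saline solution and CONTROL_IT received DMSO. Each of the 4 IP groups held 2 tumors, CONTROL_IT, NCTD_IT and MIX_IT held 4 each, and PTX_IT held 3. All 23 tumors came from the same cell line. The tumor number in the text is the one in its label. The p-values below measure the spread between these tumors.

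Fibroblasts of a tumor are host cells that are drawn into the growth and lay down its collagen-rich matrix, and many of them carry receptors for platelet-derived growth factors. Some take on a contractile, muscle-like state driven by TGF-beta, while others mainly secrete inflammatory signals. Pericytes, the mural cells of small vessels, share several of the same genes, so that none of these markers belongs to fibroblasts alone.

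Each level below is in CPM, the reads of a gene scaled to a common library total with TMM, edgeR's correction for the makeup of a library. The counts of a tumor summed to between 2861578 and 6702374, and 3 counts, the floor of what a tumor can show, came to 0.448 to 1.05 CPM. The libraries read the 3′ end of messenger RNA. These are whole-tumor libraries, in which fewer cells of a type and less RNA per cell cannot be told apart. The genes of collagens I and III were counted in every tumor, with 258 to 19214 counts of Col1a1, 70 to 10955 of Col1a2 and 81 to 4198 of Col3a1, so that matrix-forming transcripts were present throughout. Genes of mature smooth muscle differed in depth, with 0 to 2 counts per tumor of Tagln, 0 to 4 of Cnn1 and 0 to 1 of Myocd, but 0 to 21 of Myh11 and 10 to 50 of Smtn. Des, which is not confined to smooth muscle, had 0 to 195. Host sex is not in the labels, and the paper states that its treatment groups were matched for sex. As read from the sex-linked genes below, however, host sex followed some of the groups. Xist, the RNA of the inactive X chromosome of females, stood at 0 to 0.565 CPM in CONTROL_IT and at 0 in MIX_IT, but at 1.28 to 11.6 CPM in PTX_IT and 5.17 to 13.6 CPM in NCTD_IT. Ddx3y, a gene of the Y chromosome, stood at 1.03 to 8.97 CPM in CONTROL_IT, 6.82 to 15.5 CPM in MIX_IT, and at most 0.293 CPM in PTX_IT and NCTD_IT. In the comparisons of NCTD_IT and PTX_IT with CONTROL_IT and with MIX_IT, drug and host sex cannot be told apart. Xist, which serves as a covariate below, nearly follows these groups, so fits with it cannot separate drug from host sex there either. Of the 8 IP tumors, 1 of CONTROL_IP held Xist, at 8.24 CPM, and the others were at 0.

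The upstream sequences of Postn and Acta2 are shown because Postn had the smallest p and Acta2 the smallest difference of the members in MIX_IT. RefSeq promoters, 250 bases before to 50 after a gene's start on GRCm38.p6, were found for 3 of the 9 genes. The letters TATATAA were searched on both strands and are in capitals, as is GGAATG, which holds the core of the motif bound by the TEAD factors. The Postn sequence belongs to the second of its starts, at chr3:54360857-54361156 on the plus strand, and that of Acta2 lies at chr19:34255324-34255623 on the minus strand.
Postn: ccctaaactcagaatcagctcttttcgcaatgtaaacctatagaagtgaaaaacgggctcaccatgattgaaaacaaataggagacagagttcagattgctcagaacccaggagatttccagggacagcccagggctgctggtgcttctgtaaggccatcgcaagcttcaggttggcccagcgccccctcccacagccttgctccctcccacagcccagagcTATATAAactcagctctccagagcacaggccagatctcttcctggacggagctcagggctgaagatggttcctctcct
Acta2: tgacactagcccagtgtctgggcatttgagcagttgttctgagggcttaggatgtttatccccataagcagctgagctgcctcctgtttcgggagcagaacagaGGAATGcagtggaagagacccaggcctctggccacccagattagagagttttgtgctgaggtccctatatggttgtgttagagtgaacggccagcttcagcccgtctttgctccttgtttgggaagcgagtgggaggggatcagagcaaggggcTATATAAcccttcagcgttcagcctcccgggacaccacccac
Both windows held TATATAA, which 3.24% of 32851 promoters of that length hold. It began at base 223 of the Postn window and at base 259 of the Acta2 window. GGAATG was in the Acta2 window, at base 105, and in 14.7% of all promoters. The sequence of the first Postn start and that of Pdgfra held neither. These matches describe letters only.

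In the IT tumors the matrix genes Dcn and Postn and the receptor Pdgfrb were higher after each treatment, on average, than after DMSO, with NCTD_IT above PTX_IT. MIX_IT was above NCTD_IT with tumor 23 of MIX_IT, which stood apart, and below it without that tumor. No member passed an adjusted p of 0.05 by edgeR in any of the 15 comparisons made, where at most 1.37% of all genes did (in NCTD_IT), and these orders are therefore given as values. In NCTD_IT, Pdgfrb, Postn and Dcn passed once tumor 23 was left out of the shared estimate of the spread, as did 6.85% of all genes. Acta2, the contractile marker, had IT group means within 23.9 to 28.0 CPM, and Thy1 varied with the summed levels of macrophage and T cell genes. In the IP tumors no member had an adjusted p below 0.906 by edgeR.

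**Figure D1:**
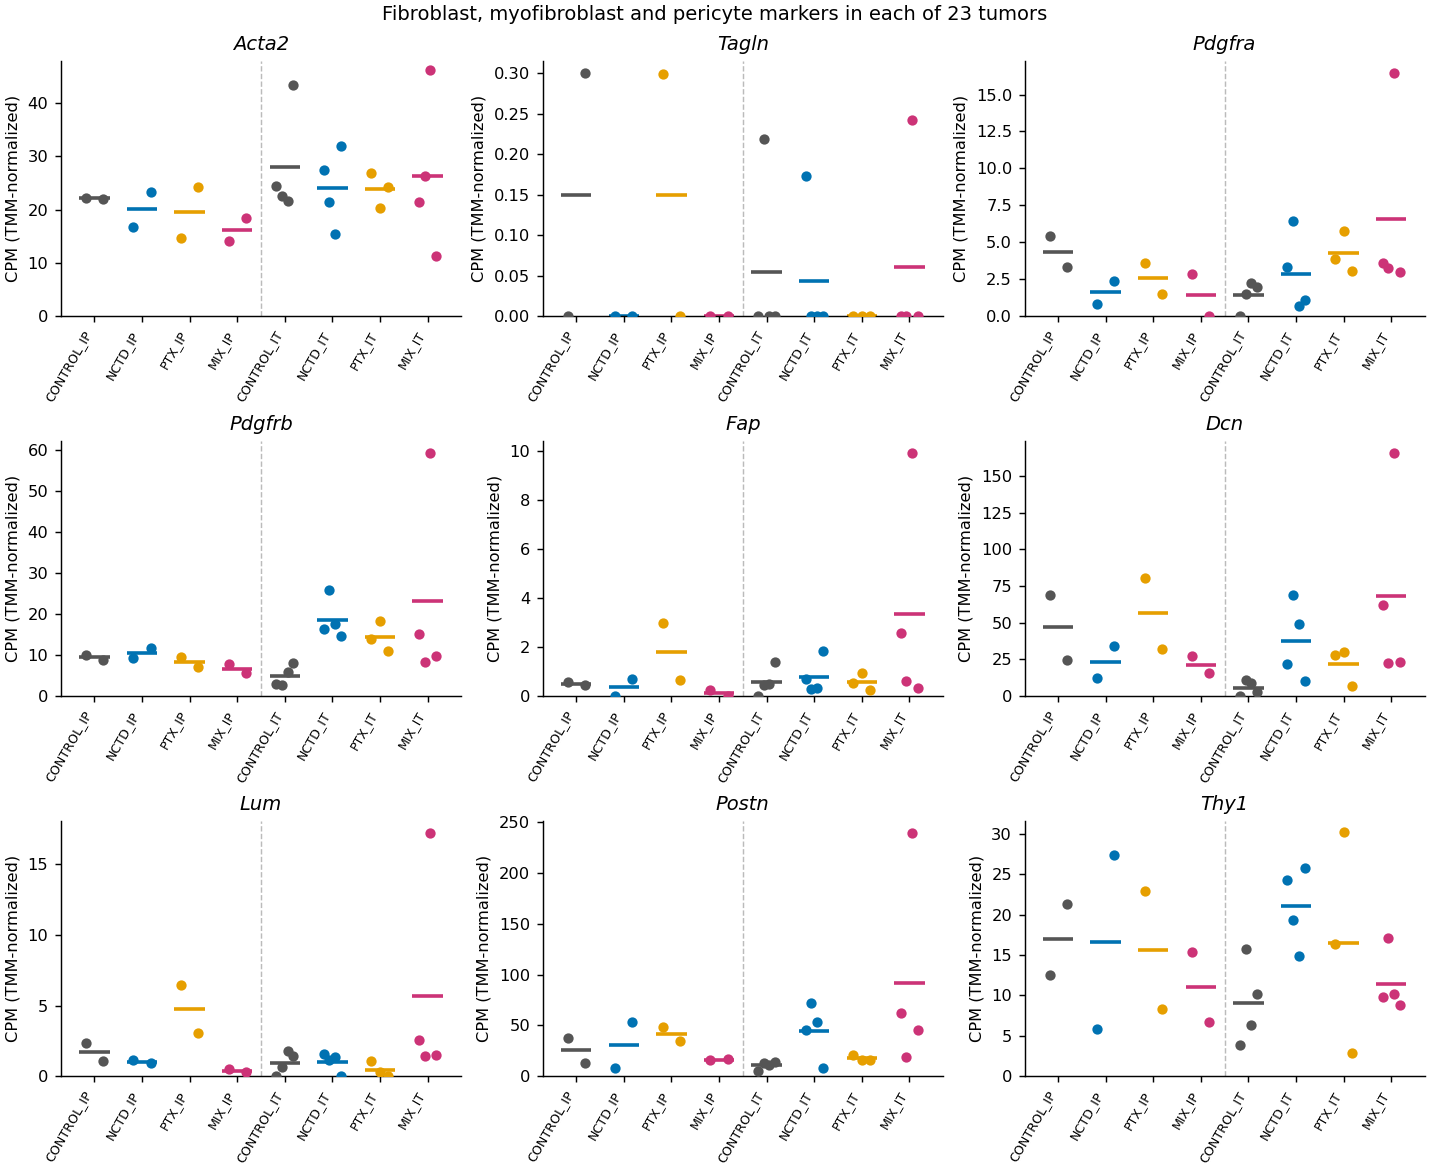
Level of each of the 9 genes in every tumor, in CPM, by group, with a dash at the mean of each group. The Pdgfrb panel shows all 11 treated IT tumors above the 4 CONTROL_IT tumors, and tumor 23 of MIX_IT stands far above the others in the panels of Pdgfra, Pdgfrb, Fap, Dcn, Lum and Postn.

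Pdgfrb (chr18:61178222-61218133 on GRCm39, plus strand), the receptor for PDGF-BB that pericytes and fibroblasts carry, gave the clearest separation. Its level in CONTROL_IT was 3.08, 2.62, 5.78 and 8.19 CPM (mean 4.92 ± 2.59, SD, n = 4). In PTX_IT it was 13.9, 18.3 and 11.02 CPM (14.4 ± 3.67, n = 3). In NCTD_IT it was 16.5, 25.8, 17.6 and 14.6 CPM (18.6 ± 4.92, n = 4), and every one of these tumors lay above every control. In MIX_IT it was 15.2, 8.41, 59.2 and 9.81 CPM (23.2 ± 24.2, n = 4), with 1 tumor far from the other 3 and the lowest just above the highest control. Pdgfrb was thus higher in each of the 11 treated IT tumors than in each of the 4 controls, as were 0.897% of the 12480 genes tested.

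The Pdgfrb difference from CONTROL_IT on the log2 scale was 1.92 in NCTD_IT (SE 0.57, edgeR adjusted p = 0.0726), 1.55 in PTX_IT (SE 0.60, adjusted p = 0.785) and 2.23 in MIX_IT (SE 0.57, adjusted p = 0.156). Without tumor 23 of MIX_IT in the edgeR model, the NCTD_IT difference kept its size, at 1.93, with an SE of 0.37 and an adjusted p of 0.0136. The MIX_IT difference without that tumor was 1.17 (edgeR adjusted p = 0.427). With Xist as a covariate in the edgeR model it was 0.95 in NCTD_IT (adjusted p = 0.901) and 2.36 in MIX_IT (adjusted p = 0.068). The IP groups were closer together, at 9.46 ± 0.872 CPM in CONTROL_IP, 8.37 ± 1.67 in PTX_IP, 10.4 ± 1.73 in NCTD_IP and 6.70 ± 1.57 in MIX_IP (n = 2 each). All 4 IP means lay between those of CONTROL_IT and PTX_IT.

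Pdgfra (chr5:75312953-75358876, plus strand), the related receptor that binds PDGF-AA and marks many fibroblasts but not pericytes, was counted far less deeply, with 0 to 68 counts per tumor. It was at 0, 1.53, 2.26 and 1.98 CPM in CONTROL_IT and at 3.89, 5.78 and 3.08 CPM in PTX_IT, which did not overlap. In NCTD_IT it was at 3.29, 6.44, 0.69 and 1.06 CPM, on both sides of the controls. MIX_IT gave 3.63, 3.27, 16.4 and 2.99 CPM, again with 1 tumor well above the rest. By edgeR the differences were 1.53 on the log2 scale in PTX_IT (SE 0.91, adjusted p = 0.809), 0.99 in NCTD_IT (SE 0.86, adjusted p = 0.527) and 2.15 in MIX_IT (SE 0.85, adjusted p = 0.294). The last was 1.17 without tumor 23 (adjusted p = 0.742). With Xist as a covariate, the edgeR difference of Pdgfra in NCTD_IT was -0.50 (SE 1.91, adjusted p = 0.970). In the IP tumors Pdgfra was highest in CONTROL_IP, at 5.42 and 3.30 CPM, and it was at 2.86 and 0 CPM in MIX_IP.

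Dcn (chr10:97315471-97354005, plus strand) encodes decorin, a small proteoglycan that binds collagen fibrils and TGF-beta. It was at 0.257, 10.7, 9.30 and 2.82 CPM in CONTROL_IT (5.77 ± 5.03), where the lowest tumor held 1 count. PTX_IT gave 28.1, 30.2 and 6.67 CPM (21.7 ± 13.02) and NCTD_IT 21.7, 69.1, 49.3 and 10.1 CPM (37.5 ± 26.7), so that in both groups 1 tumor fell among the controls. MIX_IT gave 62.0, 22.4, 165 and 23.4 CPM (68.3 ± 67.3), all above the controls. The IP tumors had more Dcn than CONTROL_IT throughout, from 12.3 to 80.8 CPM, and CONTROL_IP alone spanned 68.97 and 24.9 CPM. The edgeR difference from CONTROL_IT was 3.53 on the log2 scale in MIX_IT (SE 0.85, adjusted p = 0.129), 2.66 in NCTD_IT (SE 0.84, adjusted p = 0.0864) and 1.86 in PTX_IT (SE 0.88, adjusted p = 0.786). Without tumor 23 it was 2.59 in MIX_IT (edgeR adjusted p = 0.425) and 2.67 in NCTD_IT (adjusted p = 0.0435). With Xist as a covariate, the edgeR difference in NCTD_IT was 0.72 (adjusted p = 0.956) and that in MIX_IT was 3.73 (adjusted p = 0.058).

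Postn (chr3:54268530-54298458, plus strand), which encodes the integrin-binding matrix protein periostin, had the smallest p of the members in MIX_IT. It was at 5.397, 13.1, 11.6 and 14.1 CPM in CONTROL_IT (11.1 ± 3.91). In PTX_IT it was at 21.4, 16.4 and 16.2 CPM (17.98 ± 2.97), a little above the controls and without overlap. In NCTD_IT it was at 45.9, 71.7, 53.5 and 7.71 CPM (44.7 ± 26.9), where 3 tumors were well above the controls and tumor 20 was among them. In MIX_IT it was at 62.2, 18.7, 239 and 45.2 CPM (91.4 ± 100.3), all above the controls. By edgeR, Postn was 3.04 higher than in CONTROL_IT on the log2 scale in MIX_IT (SE 0.70, adjusted p = 0.122), 2.01 higher in NCTD_IT (SE 0.68, adjusted p = 0.108) and 0.70 higher in PTX_IT (SE 0.73, adjusted p = 0.883). Without tumor 23 these were 1.91 in MIX_IT (edgeR adjusted p = 0.425) and 2.02 in NCTD_IT (adjusted p = 0.0335). In the IP tumors Postn ranged from 8.11 to 53.3 CPM, and both of those values came from NCTD_IP.

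Lum (chr10:97400990-97408565, plus strand), which encodes lumican, another collagen-binding proteoglycan, and Fap (chr2:62331287-62404419, minus strand), a cell surface protease of activated fibroblasts, were near the floor. Lum had fewer than 3 counts in 6 of the 23 tumors and Fap in 11 of 23. Neither passed the filter on low counts in the IT tumors. Their highest levels, 17.2 CPM of Lum and 9.91 CPM of Fap, were both in tumor 23 of MIX_IT, and the other IT tumors had at most 2.56 CPM of either. In the IP tumors Lum passed the filter and was at 6.42 and 3.05 CPM in PTX_IP, above 2.32 and 1.05 CPM in CONTROL_IP, while MIX_IP had 0.521 and 0.28 CPM. Its edgeR differences from CONTROL_IP were 1.51 in PTX_IP (SE 0.71, adjusted p = 0.906) and -1.96 in MIX_IP (SE 0.94, adjusted p = 0.999). The test for any difference among the 4 IP groups gave Lum an unadjusted p of 0.0121 by edgeR (adjusted p = 0.999), the only one of 7 members under 0.05, as were 3.27% of all genes. Lum passed the filter there only with PTX_IP, at 14 and 43 counts, while no other IP tumor had over 12. That p is therefore no independent support for a difference.

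Acta2 (chr19:34218490-34232990, minus strand), which encodes smooth muscle actin, the usual mark of the contractile fibroblast state, had close group means in the IT tumors, with a wider spread between single tumors. CONTROL_IT gave 24.4, 22.5, 21.6 and 43.5 CPM, PTX_IT 27.0, 20.2 and 24.4, NCTD_IT 27.4, 21.4, 15.5 and 31.9, and MIX_IT 21.4, 26.3, 46.2 and 11.3. The IT group means ran from 23.9 to 28.0 CPM, the highest being that of the controls, and the ranges of all 4 groups overlapped. The 8 IP tumors lay between 14.1 and 24.2 CPM. By edgeR the differences from CONTROL_IT were -0.21 in NCTD_IT (SE 0.36, adjusted p = 0.769), -0.23 in PTX_IT (SE 0.39, adjusted p = 0.937) and -0.10 in MIX_IT (SE 0.35, adjusted p = 0.934), and each turned positive when tumor 12 of CONTROL_IT was left out, at 0.09, 0.07 and 0.21. Without tumor 23 of MIX_IT the MIX_IT difference was -0.52 (SE 0.32, edgeR adjusted p = 0.719). Tagln (chr9:45840917-45847356, minus strand), which encodes transgelin, an actin-binding protein of the same state, had 7 counts in all, with 0 in 18 of the 23 tumors. Of the last 500 exonic bases of Tagln, 122 (24.4%) overlap Pcsk7 and Gm48529 on the opposite strand. The strand setting of the counting is not given in the sources used here, so reads of these genes may not have been told apart there.

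Thy1 (chr9:43954681-43959876, plus strand) encodes a cell surface glycoprotein of fibroblasts that is also a classical marker of mouse T cells. It was at 3.85, 15.7, 6.29 and 10.2 CPM in CONTROL_IT (9.01 ± 5.19), 16.4, 30.2 and 2.82 CPM in PTX_IT (16.5 ± 13.7), 24.3, 19.3, 14.8 and 25.8 CPM in NCTD_IT (21.1 ± 4.99) and 9.83, 17.1, 10.2 and 8.81 CPM in MIX_IT (11.5 ± 3.81). MIX_IT, in which Dcn and Postn were highest, had the second lowest mean of the IT groups, and tumor 23 had 10.2 CPM of Thy1, within the range of the controls. The edgeR difference from CONTROL_IT was 1.22 on the log2 scale in NCTD_IT (SE 0.52, adjusted p = 0.187), 0.84 in PTX_IT (SE 0.56, adjusted p = 0.817) and 0.34 in MIX_IT (SE 0.52, adjusted p = 0.825). With Xist as a covariate, the edgeR differences of Thy1 in NCTD_IT and PTX_IT turned negative, at -2.08 (adjusted p = 0.827) and -2.42 (adjusted p = 0.975). Since Xist nearly follows these groups, that fit does not separate host sex from drug.

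**Figure D2:**
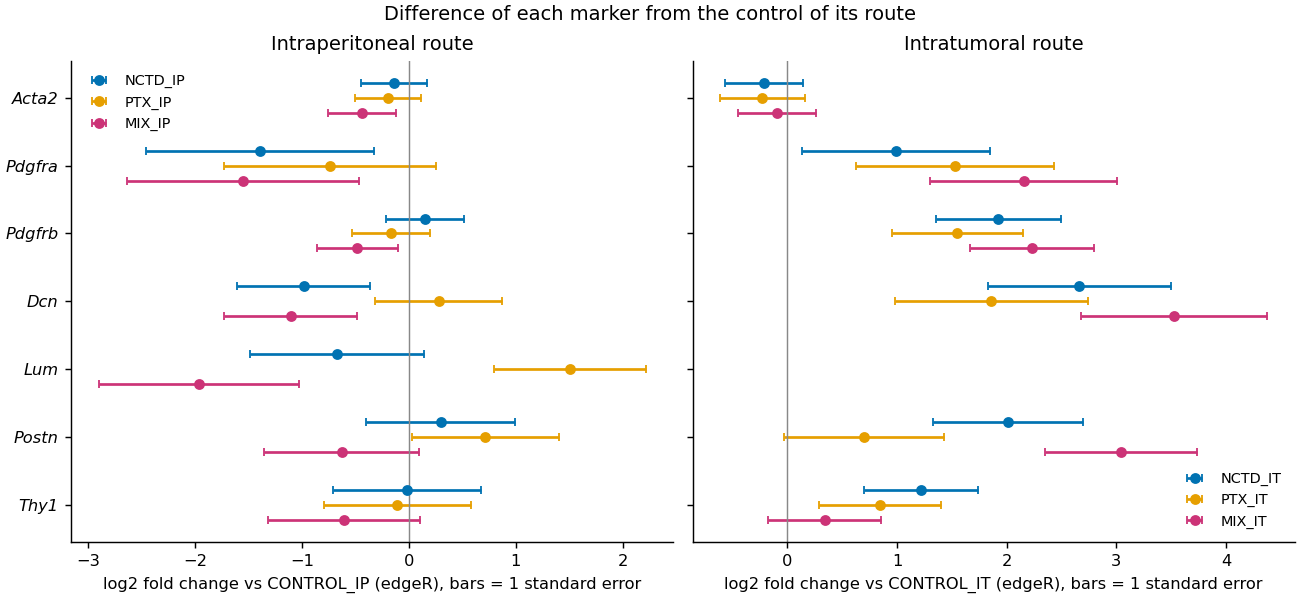
Difference of each treated group from the control of its route, on the log2 scale by edgeR, with bars of 1 SE, for the members that passed the filter on low counts. In the IT groups Pdgfrb, Dcn, Postn, Pdgfra and Thy1 lie above 0 and Acta2 near 0, and in the IP groups no member has an adjusted p below 0.906.

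Counted over the members, 6 of the 9 passed the filter in the IT tumors and 7 in the IP tumors. None passed an adjusted p of 0.05 by edgeR in NCTD_IT, where 1.37% of all genes tested did, nor in PTX_IT, MIX_IT or the IP comparisons, where 0% of all genes did. At an unadjusted p below 0.05 by edgeR, 4 of 6 were higher in NCTD_IT (11.6% of all genes), 2 of 6 in PTX_IT (4.18%) and 4 of 6 in MIX_IT (7.88%). The median difference over the 6 was 1.57 on the log2 scale in NCTD_IT, 1.18 in PTX_IT and 2.19 in MIX_IT, while the medians over all genes tested were 0.03, 0.02 and 0.01. Without tumor 23 the median of the 6 in MIX_IT was 1.17, and 3 of 6 were higher at an unadjusted p below 0.05 by edgeR, against 4.9% of all genes. In the test for any difference among the 4 IT groups 0 of 6 passed, against 0.024% of all genes, and 3 of 6 (Postn, Dcn and Pdgfrb) had an unadjusted p below 0.05, against 12.9%. DESeq2 on the groups compared called 3 members in NCTD_IT (Pdgfrb, Postn and Thy1, against 10.6% of all genes), 3 in MIX_IT (Postn, Pdgfrb and Dcn, against 1.92%) and 0 in PTX_IT (against 0.0969%). Without tumor 23, edgeR called 3 in NCTD_IT (Pdgfrb, Postn and Dcn), against 6.85% of all genes, and 0 in both other IT comparisons. That setting was chosen after the values were seen.

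Members that passed the filter and whose tumors did not overlap with their controls were counted as well. All tumors were above CONTROL_IT for 1 member in NCTD_IT (Pdgfrb, against 7.8% of all genes), for 3 in PTX_IT (Pdgfra, Pdgfrb and Postn, against 3.79%) and for 4 in MIX_IT (Pdgfra, Pdgfrb, Dcn and Postn, against 4.91%). Pdgfra entered these counts only through treated tumors, as given above, so its place among them is no independent result. In the IP tumors, with 2 against 2, both MIX_IP tumors were below both controls for Acta2, Pdgfra, Pdgfrb and Lum, against 18.9% of all genes. Both NCTD_IP tumors were below them for Pdgfra, against 18%, and both PTX_IP tumors were above them for Lum, against 15.7%. Lum passed the filter in the IP tumors only with PTX_IP, so its place in these counts is no independent result. The mean of MIX_IP was the lowest of the 4 IP groups for 8 members, and Tagln was at 0 there as in NCTD_IP. The share of all genes with their lowest IP mean in MIX_IP was not computed, so that count has no background. Some gaps were small, as for Pdgfra, at 1.43 CPM in MIX_IP and 1.61 CPM in NCTD_IP. At an unadjusted p below 0.05 by edgeR, 0 members were counted in NCTD_IP, PTX_IP and MIX_IP, where 3.59%, 5.3% and 2.94% of all genes were. DESeq2 on the groups compared called 0 members in these 3 IP comparisons, against 0.0787%, 0.0186% and 0.138% of all genes.

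The treated IT groups were also set against each other. Postn was 2.34 higher in MIX_IT than in PTX_IT on the log2 scale (SE 0.75, edgeR unadjusted p = 0.00634, adjusted p = 0.982), the only member under an unadjusted 0.05 there, against 3.75% of all genes, and 1.21 higher without tumor 23. Between NCTD_IT and PTX_IT and between MIX_IT and NCTD_IT, 0 members had an unadjusted p below 0.05 by edgeR, against 3.87% and 6.02% of all genes, and 0 passed the adjusted threshold, against 0% and 0.00801%. For Dcn, MIX_IT minus NCTD_IT was 0.87 (SE 0.75) with tumor 23 and -0.08 (SE 0.72) without it, and for Postn it was 1.03 (SE 0.64) and -0.11 (SE 0.52). For Pdgfrb it was 0.31 with tumor 23 and -0.76 (SE 0.37) without it. The sign of the difference between the combination and NCTD alone in these genes thus turned with 1 tumor. Host sex moved with these groups as well, since Ddx3y rose in MIX_IT over NCTD_IT by 6.74 on the log2 scale (SE 0.96, edgeR adjusted p = 0.0328), and its part in these differences was not tested.

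The difference between the routes in the response itself was tested in a model of all 23 tumors, in which 8 members passed the filter. For MIX, the IT difference exceeded the IP difference by 4.64 on the log2 scale for Dcn (SE 1.33), by 3.68 for Postn (SE 1.19) and by 2.72 for Pdgfrb (SE 0.87), with edgeR adjusted p of 0.584, 0.585 and 0.585. Pdgfra, at 3.72, and Lum, at 4.50, also had an unadjusted p below 0.05 by edgeR, which made 5 of 8 members against 4.75% of all genes in that direction. Lum passed the filter of that model only through tumors of PTX_IP and MIX_IT, so it adds no independent support. Without tumor 23 the values were 3.68 for Dcn, 2.53 for Postn and 1.64 for Pdgfrb, while Pdgfra, at 2.71, and Lum, at 2.86, were no longer under an unadjusted 0.05 (edgeR adjusted p = 0.828 for both), which left 3 of 8 members against 3.54% of all genes. For NCTD the excess was 3.65 for Dcn (SE 1.31, edgeR adjusted p = 0.341) and 1.78 for Pdgfrb (SE 0.85, adjusted p = 0.46), and these 2 members of 8 were under an unadjusted 0.05, against 5.5% of all genes. For PTX 0 members were, against 5.23%. Host sex differed between the IT groups and in 1 tumor of CONTROL_IP, and its part in these route differences was not tested. With the drug adjusted for, 0 of 8 members differed between the routes at an unadjusted p below 0.05 by edgeR, against 13.5% of all genes, and 0 passed the adjusted threshold, against 0.366%. Acta2 came nearest at 0.39 higher in the IT tumors (SE 0.20, edgeR adjusted p = 0.392).

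Across the 15 IT tumors, Dcn, Postn and Pdgfrb varied together. On log2 CPM (prior count 2), Dcn and Postn had Pearson's r = 0.855 and Spearman's rho = 0.882 (permutation tests, adjusted over 36 pairs, p = 0.00288 and 0.00072). Pdgfrb and Dcn had r = 0.793 and rho = 0.796 (permutation adjusted p = 0.00567 and 0.0099), and Pdgfrb and Postn r = 0.785 and rho = 0.764 (permutation adjusted p = 0.00567 and 0.0181). Without the 2 tumors farthest from the median of the first gene, r was 0.775, 0.842 and 0.693 for these pairs, and over deviations from the group means it was 0.75, 0.572 and 0.727. Pdgfra was also related to Dcn (r = 0.766, rho = 0.693, permutation adjusted p = 0.0104 and 0.0403) and to Postn (r = 0.702, rho = 0.689, permutation adjusted p = 0.0195 and 0.0403). Without the 2 tumors farthest from the median of Pdgfra, r was 0.361 and 0.314, and over deviations from the group means it was 0.731 and 0.68. Acta2 had r = -0.095 with Dcn and 0.004 with Postn. Without tumor 23 these were -0.429 and -0.474 (permutation adjusted p = 0.353 and 0.280). In all, 5 of the 36 pairs passed by both measures in the IT tumors and 0 of 36 in the 8 IP tumors. Without tumor 23 only Dcn with Postn of the 36 IT pairs passed by both (r = 0.821, rho = 0.855, permutation adjusted p = 0.00432 and 0.009), while Pdgfrb had r = 0.729 with Dcn and 0.660 with Postn (permutation adjusted p = 0.0639 and 0.0683).

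**Figure D3:**
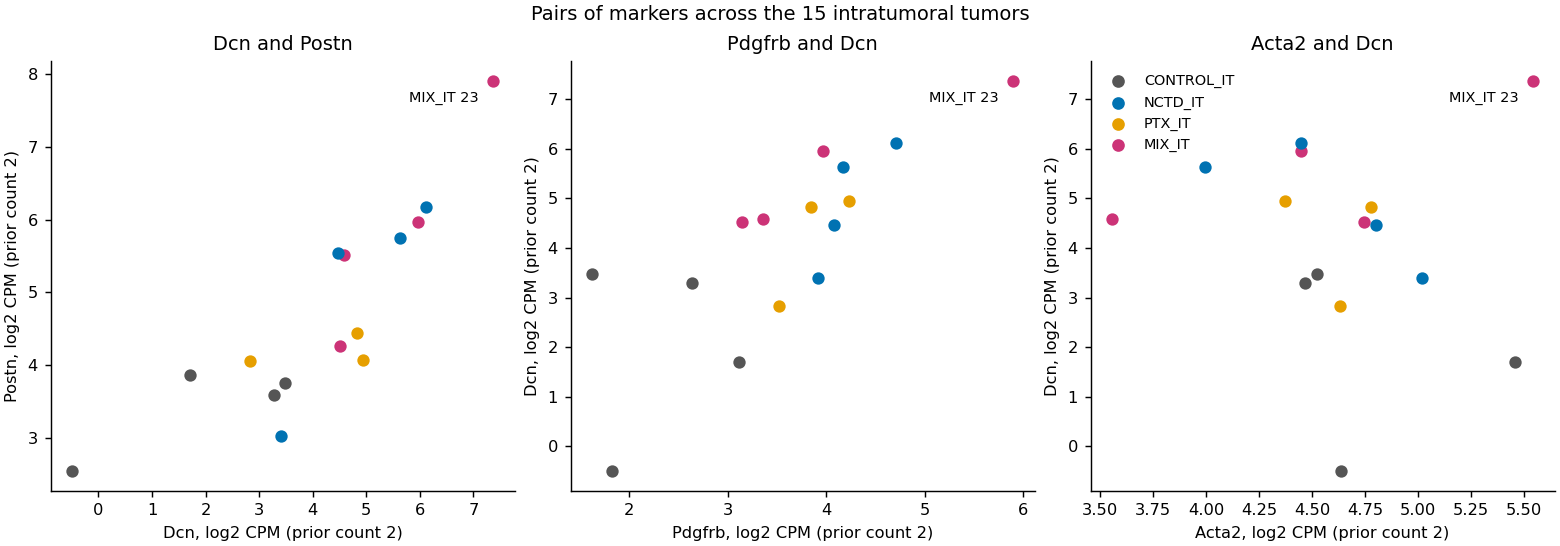
Pairs of members in the 15 IT tumors, with log2 CPM (prior count 2) on both axes and the group as the color. Dcn and Postn lie along a line (r = 0.855), as Pdgfrb and Dcn do (r = 0.793), while Acta2 spreads without relation to Dcn (r = -0.095).

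Each member was then set against the summed CPM of marker lists for the cells a tumor may hold, none of which contains a member. This was chosen after the values were seen, for 6 members and 6 lists, and 15 of 36 relations passed by both measures in the IT tumors. All share the same libraries, in which a larger share for one kind of transcript leaves less for the rest. Postn followed the list of fibroblast identity and matrix genes, at r = 0.893 and rho = 0.939 (permutation adjusted p = 9e-05 and 0.00018), and r = 0.829 without the 2 farthest tumors. Dcn followed it too, at r = 0.804 and rho = 0.932 (permutation adjusted p = 0.00332 and 0.00018). Pdgfrb was as close to the pericyte list, at r = 0.905 and rho = 0.821 (permutation adjusted p = 9e-05 and 0.00192), and to the endothelial list, at r = 0.896 and rho = 0.836 (permutation adjusted p = 9e-05 and 0.00153), as to the fibroblast list, at r = 0.842 and rho = 0.825 (permutation adjusted p = 0.000288 and 0.00192). Without tumor 23, 8 of the 36 relations passed by both measures, and r was 0.863 and 0.867 for Postn and Dcn with the fibroblast list and 0.855 for Pdgfrb with the pericyte list. Whether these coefficients differ from each other, or from those of Thy1 below, was not tested.

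Thy1 had another pattern. Its r with the fibroblast list was 0.186 and its rho 0.271 (permutation adjusted p = 0.635 and 0.489). With the macrophage list its r was 0.923 and its rho 0.882 (permutation adjusted p = 9e-05 and 0.00096). With the T cell list its r was 0.807 and its rho 0.825 (permutation adjusted p = 0.00084 and 0.00216). Without the 2 farthest tumors r was 0.844 for macrophages and 0.852 for T cells, and over deviations from the group means it was 0.92 and 0.784. In PTX_IT the T cell sum was 70.9, 115 and 6.15 CPM in the tumors where Thy1 was 16.4, 30.2 and 2.82 CPM. In the 8 IP tumors none of the 36 relations passed by both measures, and Thy1 had r = 0.849 with the T cell list and 0.791 with the macrophage list. There Postn had r = 0.929 with the fibroblast list, but Pdgfrb had r = -0.541 with the pericyte list. The other members had r between -0.251 and 0.182 with the T cell list in the IT tumors. Leaving out tumor 23 of MIX_IT, where the T cell sum was 3.14 CPM, raised these to between 0.026 (Postn) and 0.470 (Dcn). Thy1 then had r = 0.862 with the T cell list and 0.450 with the fibroblast list. The contrast between Thy1 and the other members was thus smaller without that tumor. The melanoma list, led by the pigment genes Dct and Pmel, ran against the matrix genes in the IT tumors, at r = -0.838 for Postn (rho = -0.739, permutation adjusted p = 0.000926 and 0.00876). In the IP tumors its r was positive, at 0.492 with Postn and 0.773 with Dcn.

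**Figure D4:**
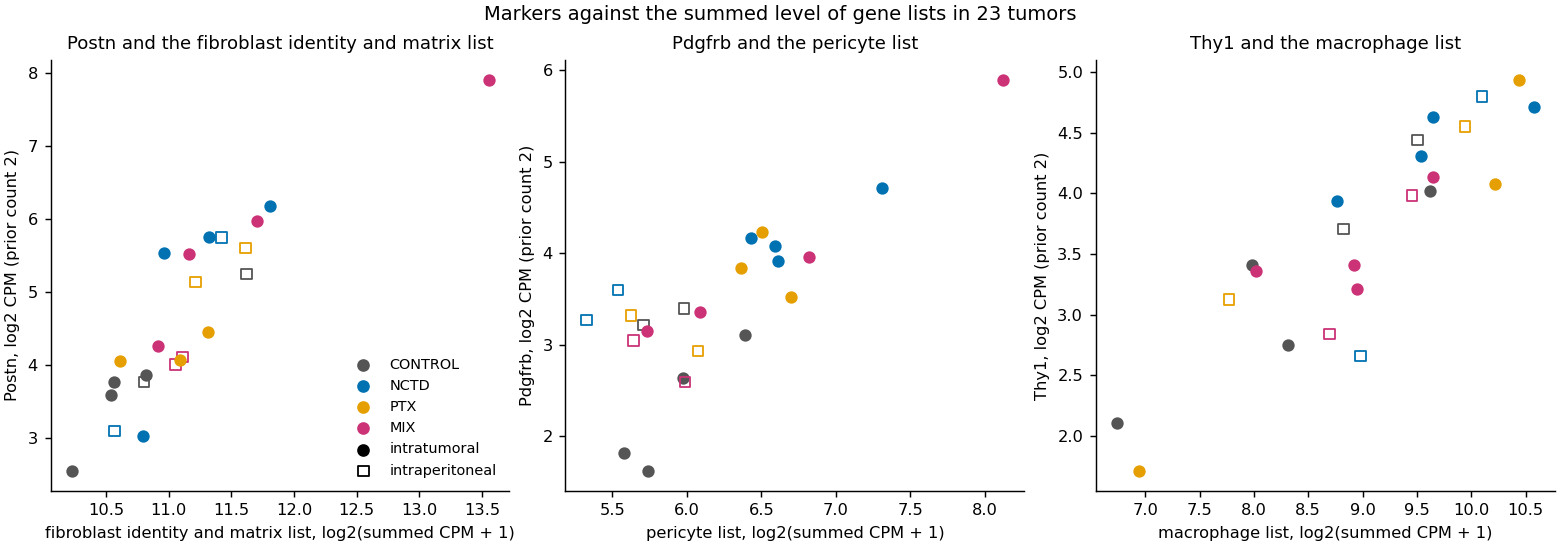
Postn against the fibroblast identity and matrix list, Pdgfrb against the pericyte list and Thy1 against the macrophage list in all 23 tumors, with lists as log2 of the summed CPM plus 1. The IT tumors, as filled circles, follow a line in each panel, with r = 0.893, 0.905 and 0.923, and the point at the far upper right of the first and second panels is tumor 23 of MIX_IT. In the 8 IP tumors r was 0.929, -0.541 and 0.791.

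The genes most like the members were taken from all genes tested in the IT tumors, by Pearson's r with the mean z-score of the 6 members over deviations from the group means in 15 tumors. The closest were Col6a3 (r = 0.946), a chain of collagen VI, and Prrx1 (0.927), a mesenchymal transcription factor. Others among the 10 closest were Arap3, Cdh5, Col1a2, Loxl1, Sulf1, Irak3 and Gm10039. Cdh5 encodes the cadherin of endothelial junctions and Loxl1 an enzyme that crosslinks elastin. The members themselves had r of 0.90 (Pdgfra), 0.85 (Pdgfrb), 0.81 (Dcn), 0.76 (Postn), 0.55 (Acta2) and 0.43 (Thy1) with the score they form, so that Acta2 and Thy1 shared the least of it.

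The wider pathways around the members were followed through lists of genes. Of the 32 fibroblast identity and matrix genes, 26 were tested in the IT tumors, and at an unadjusted p below 0.05 by edgeR 10 were higher and 0 lower in NCTD_IT, 2 and 0 in PTX_IT, and 19 and 0 in MIX_IT. Of all genes tested, 11.6%, 4.18% and 7.88% were higher and 10%, 2.16% and 5.11% lower in these groups, which is the background for each list below too. Their median differences were 1.24, 0.82 and 1.96 on the log2 scale. None passed the adjusted threshold. Col1a1, the main chain of collagen I, was 3.52 higher in MIX_IT (SE 0.75, edgeR adjusted p = 0.122) and 2.02 higher in NCTD_IT (SE 0.71, adjusted p = 0.118). Without tumor 23, 10 of 24 genes were higher and 1 lower in MIX_IT, with a median of 1.14. In that setting 3 of the 24 passed the adjusted threshold in NCTD_IT.

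The contraction genes of smooth muscle and myofibroblasts gave other counts. Mylk and Cald1 had the highest mean levels of that list, at 192 and 142 CPM, while Cnn1 and Myocd reached at most 4 and 1 counts in a tumor. Which cells the reads of these genes came from was not tested. Of 17 in the list, 12 were tested, and at an unadjusted p below 0.05 by edgeR 0 were higher and 1 lower in NCTD_IT, 0 and 0 in PTX_IT, and 0 and 2 in MIX_IT, with medians of -0.39, -0.08 and -0.37. Cnn2, a calponin that is not confined to muscle, was -1.35 in NCTD_IT (SE 0.37, edgeR adjusted p = 0.0606) and -1.31 in MIX_IT (SE 0.36, adjusted p = 0.168). Of the 22 genes of TGF-beta ligands, receptors and targets, 19 were tested, with 3 higher and 1 lower in NCTD_IT, 0 and 0 in PTX_IT, and 1 and 2 in MIX_IT by the same unadjusted measure, and medians of 0.33, 0.05 and -0.27.

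Around the PDGF receptors, 6 of 7 ligands and related receptors were tested, and 1 was higher at an unadjusted p below 0.05 by edgeR in NCTD_IT, 1 in PTX_IT and 0 in MIX_IT. The one in PTX_IT was Pdgfb, the ligand of the beta receptor, at 1.69 (SE 0.72, edgeR adjusted p = 0.785). Pericyte genes, of which 7 of 12 were tested, gave 1, 0 and 2 higher, and Rgs5, a regulator of G-protein signals in pericytes, was 1.81 higher in MIX_IT (SE 0.49, edgeR adjusted p = 0.165). Without tumor 23 the pericyte median in MIX_IT turned from 0.44 to -0.17. Among 7 genes of periostin's and Fap's partners, Tnc, which encodes the matrix protein tenascin C, rose in NCTD_IT by 2.93 (SE 0.57, edgeR adjusted p = 0.0301). Among 11 tested genes of the inflammatory fibroblast list, the neutrophil-attracting chemokine Cxcl2 rose in NCTD_IT by 4.86 (SE 1.04, edgeR adjusted p = 0.0363) and the acute-phase gene Saa3 by 3.01 (SE 0.68, adjusted p = 0.0423), and both are also made by cells other than fibroblasts.

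**Figure D5:**
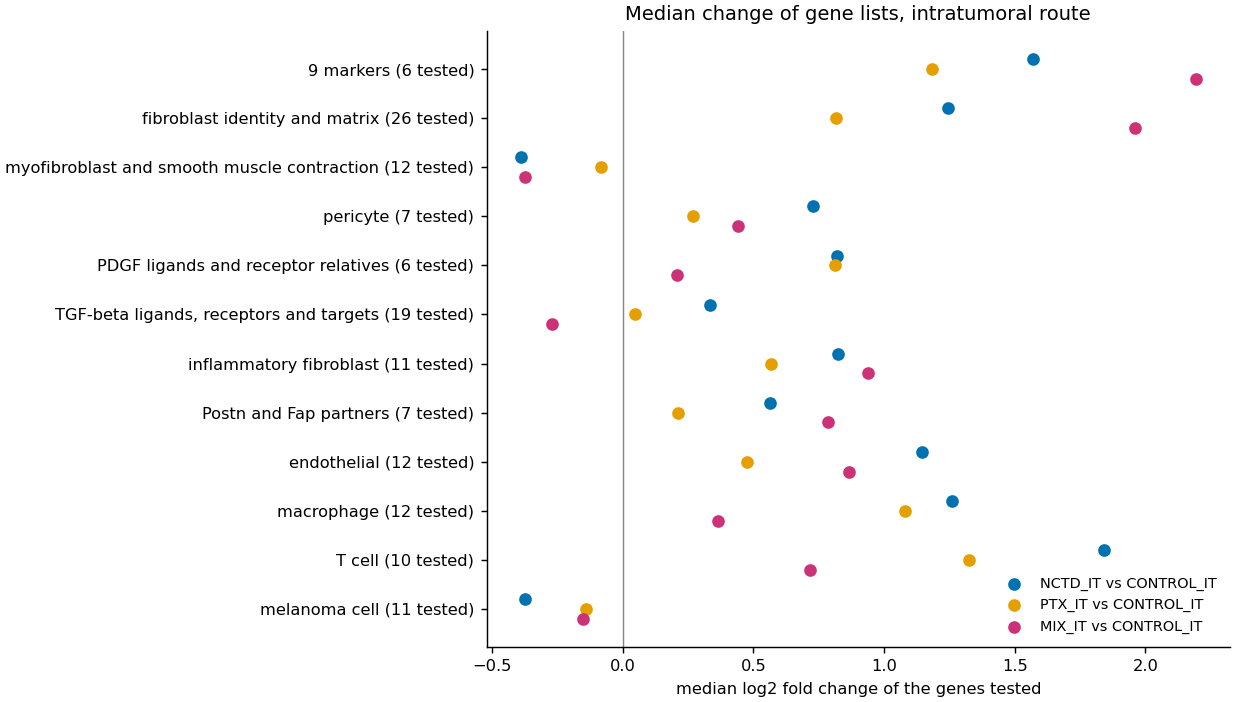
Median difference from CONTROL_IT on the log2 scale by edgeR over the tested genes of each list, for the 3 treated IT groups. The fibroblast matrix list lies at 1.24, 0.82 and 1.96 in NCTD_IT, PTX_IT and MIX_IT, while the contraction list lies below 0 in all 3.

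The marker genes of other cells were read beside the members, against the same shares of all genes (11.6% higher and 10% lower in NCTD_IT). In NCTD_IT, 7 of 12 endothelial genes, 5 of 12 macrophage genes and 1 of 10 T cell genes were higher at an unadjusted p below 0.05 by edgeR, and 4 of 11 melanoma genes were lower, among them Mitf, the master regulator of pigment cells, which fell by 0.86 on the log2 scale (SE 0.18, adjusted p = 0.0363). In MIX_IT the counts were 5 of 12, 2 of 12 and 0 of 10 higher and 2 of 11 lower, and in PTX_IT 1 of 12, 3 of 12 and 1 of 10 higher and 1 of 11 lower. The summed melanoma list ranged from 30637 to 35996 CPM in CONTROL_IT and from 22114 to 30847 CPM in NCTD_IT. In tumor 23 of MIX_IT the fibroblast list summed to 12014 CPM, where CONTROL_IT had 1196 to 1807 CPM, the pericyte list to 278 CPM, the endothelial list to 327 CPM, the adipocyte list to 521 CPM and the melanoma list to 18042 CPM, while the T cell list was at 3.14 CPM. The part of the makeup of the tumors in the differences of the members was not tested.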

How the data were processed

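The authors made 3′ mRNA libraries from 23 tumors, checked and trimmed the reads (FastQC, Trimmomatic), aligned them to GRCm39 with STAR 2.7.11b and deposited raw counts per gene and tumor, without normalization. Tumors were grouped by their labels. The members and all gene lists were chosen with earlier results of these data known. The tests ran in edgeR 4.0.16 under R 4.3.3 (filterByExpr, min.count 10, min.total.count 15, TMM, two-sided quasi-likelihood test, Benjamini-Hochberg over all genes tested), with the 4 groups of a route in one model. Of genes outside the 9, the text names by rule those of a list with the smallest p or, where none passed, the highest level, and the 10 most like the members, of which 1 is not reported here. Col1a1, Pdgfb, Rgs5, Cnn2, Cnn1, Myocd, Myh11, Smtn, Des and Col3a1 were named after their values were seen. Correlations used 100000 permutations, or exact ones in the 8 IP tumors, two-sided, in Python 3.11.15 with scipy 1.17.1. Alternatives were DESeq2 1.42.0, no TMM, no filter, other sets of tumors, Xist as a covariate and leaving out each tumor. The model was tested on simulated counts. Totals per tumor were 2861578 to 6702374, and the floor of 3 counts covers counting error only. Promoter coordinates (GRCm38.p6) and gene coordinates (GRCm39) were not converted.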

Additional observations from a re-analysis of the deposited data

Results flagged for a closer look

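In 5 of 24 groups of 4 tumors checked, 1 tumor lay far from the other 3. Its gap to the nearest was over 0.829 of the range of the group. Chance gives about 1 such group in 20 where values are normally distributed and groups are independent. CPM at low counts is skewed and these groups share tumors, so that rate need not hold here. Groups whose highest tumor had under 3 counts, and groups of 2 or 3 tumors, were not checked. Tumor 23 of MIX_IT was that tumor for 3 genes, with Pdgfrb at 59.2 CPM, Pdgfra at 16.4 CPM and Lum at 17.2 CPM. Acta2 stood at 43.5 CPM in tumor 12 of CONTROL_IT, and Thy1 at 17.1 CPM in tumor 22 of MIX_IT.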

How the results depend on the processing

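No paired analysis was possible because no replicate number occurs in more than 1 group. Where 0 members passed by edgeR, leaving out the filter on low counts gave 4 in NCTD_IT (4.43% of all genes), 2 in PTX_IT (0.826%), 3 in MIX_IT (1.35%), 4 for any difference among the IT groups (3.45%), 2 for any difference among the IP groups (0.812%), 1 between NCTD_IT and PTX_IT (0.253%), 1 between MIX_IT and NCTD_IT (0.707%), 2 between MIX_IT and PTX_IT (0.406%), 2 and 3 for the route differences of NCTD and MIX (0.974% and 0.478%), and 1 between the routes (1.38%). DESeq2 in the same design gave 1 in NCTD_IT (7.44% of all genes), 3 in MIX_IT (1.89%) and 2 for any IT difference (3.58%), and DESeq2 on the groups compared 3 in NCTD_IT (10.6%) and 3 in MIX_IT (1.92%). In NCTD_IT edgeR on the groups compared gave 2 (8.4% of all genes), all 23 tumors in the model 1 (5.8%), and leaving out tumor 23 of MIX_IT, added after seeing the data, 3 (6.85%). The causes were not tested. The IT pairs with an adjusted Pearson p below 0.05, 11 of 36, ranged from 1 (without tumor 23 of MIX_IT) to 12 when each tumor was left out, with 4 without tumor 9 of CONTROL_IT and 7 without tumor 10 of CONTROL_IT, 13 of PTX_IT or 21 of MIX_IT. Signs turned with Xist as a covariate for Pdgfra in NCTD_IT (-0.50), Thy1 in NCTD_IT (-2.08) and PTX_IT (-2.42), and Lum (0.072) and Postn (0.17) between the routes. Leaving out each tumor in turn, signs turned within these ranges of the log2 difference. In NCTD_IP they were -0.38 to 0.076 for Acta2, -0.015 to 0.31 for Pdgfrb, -1.62 to 1.23 for Postn and -1.51 to 0.69 for Thy1. In PTX_IP they were -0.59 to 0.12 for Acta2, -0.40 to 0.0081 for Pdgfrb, -0.53 to 1.19 for Dcn and -1.04 to 0.43 for Thy1, and in MIX_IP -1.20 to 0.31 for Postn. For Acta2 they were -0.37 to 0.091 in NCTD_IT, -0.33 to 0.065 in PTX_IT and -0.52 to 0.21 in MIX_IT. Between the routes they were -0.31 to 0.34 for Postn and -0.32 to 0.027 for Thy1. From NCTD_IT to MIX_IT they were -0.31 to 0.37 for Acta2, -0.76 to 0.58 for Pdgfrb, -0.08 to 1.35 for Dcn and -0.11 to 1.36 for Postn. From PTX_IT to MIX_IT they were -0.29 to 0.39 for Acta2, -0.36 to 0.90 for Pdgfra, -0.38 to 0.96 for Pdgfrb and -1.004 to 0.26 for Thy1, and from PTX_IT to NCTD_IT -0.14 to 0.18 for Acta2 and -0.13 to 1.14 for Thy1. Of the route differences in response, signs turned for Acta2 with MIX (-0.09 to 0.62), NCTD (-0.29 to 0.21) and PTX (-0.34 to 0.35) and for Postn with PTX (-0.96 to 0.56). Of the log2 differences recomputed, 629 kept their direction and side of the threshold, 23 passed it anew and 35 turned. Depth limited Fap, Lum and Tagln, which were near the floor of 3 counts, and groups of 2 tumors limited every IP comparison.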
